A study of Mus musculus with 4 samples.

Results

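The secreted WNT inhibitors described here are 10 genes, Sfrp1, Sfrp2, Sfrp4, Sfrp5, Frzb, Wif1, Dkk1, Dkk2, Dkk3 and Notum, taken by name from the 19938 genes of the array table. Each had 1 probe set that named it alone, so all 10 were measured and none was left out. Their expression was compared on microarrays in mouse dermal papilla cells, which form the mesenchymal core of the hair bulb, at postnatal day 5. The 2 cKO arrays came from a conditional knockout of Sox2, a transcription factor gene active in a subset of papillae, and the 2 Het arrays from Sox2 heterozygotes. In both groups the cells were sorted for green fluorescence from a Sox2GFP reporter together with integrin alpha 9, so all samples share the reporter and the sort gate. The sources used here do not give the Cre line, the floxed allele, the strain or whether animals were pooled. The replicates are labelled as biological, with no statement on separate animals or litters, so p-values measure only the spread between these samples.

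WNT proteins are lipid-modified ligands that bind Frizzled receptors together with LRP5 or LRP6, which stabilises beta-catenin in the receiving cell. Secreted inhibitors act outside the cell. SFRP proteins and WIF1 bind the ligand, DKK1 and DKK2 bind the LRP coreceptors, and NOTUM is an esterase that removes the lipid from the ligand. In skin the papilla signals to the hair matrix above it, and WNT activity in both compartments is tied to hair growth.

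The deposited values were centred on the median of the 4 arrays for each probe set. A value of 0 therefore marks that median, the 2 middle arrays of a gene stand at equal distances above and below it, and no expression level can be read. A gene that is silent in all samples cannot be told from one that is expressed evenly, and the labelled tissue could not be checked by marker levels. Fewer cells of a type and less RNA per cell likewise cannot be told apart. The targeted gene, Sox2, had log2 values of -0.87 and -0.94 in cKO replicates 1 and 2, against 0.96 and 0.87 in Het replicates 1 and 2. Itga9, the gene of the sorted integrin, stood at -0.21 and 0.06 in cKO and at 0.19 and -0.06 in Het, with overlapping groups. The arrays also differed in sex-linked transcripts, which were looked at after their values were known. Xist, the X-inactivation RNA, stood at 0.85 and 1.23 in cKO and at -4.08 and -0.85 in Het, and the Y-linked Eif2s3y at -0.87 and -0.79 in cKO and at 1.18 and 0.79 in Het. Sex-linked expression and genotype cannot be told apart in these arrays.

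Of the 10 inhibitors, Sfrp2 stood lower and Wif1 higher in both cKO arrays than in both Het arrays, by more than any other member. The other 8 members differed by at most 1.18-fold. Limma's test, adjusted over all genes by the Benjamini-Hochberg method, passed 0 of the 10 members at 0.05, and it passed 0 of all 19938 genes (0%). The adjusted p of the members ran from 0.936 to 1. At an unadjusted p under 0.05 there were 2 members, Sfrp2 and Wif1, against 5.28% of all genes. The groups did not overlap in 1 member that stood higher in cKO, Wif1, against 17.8% of all genes, and in 3 members that stood lower, Sfrp2, Dkk1 and Dkk3, against 15.6% of all genes. Sfrp2 was the 1 member to combine a 2-fold or larger difference with separate groups, a rule met by 26 genes in all (0.13%). The difference was above 0 in 4 of the 10 members, against 52.3% of all genes. The median difference, cKO minus Het, was -0.03 over the members and 0.003 over all genes as log2 values. For a single gene, an exact two-sided permutation test of 2 against 2 arrays cannot go below p = 0.333.

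**Figure D1:**
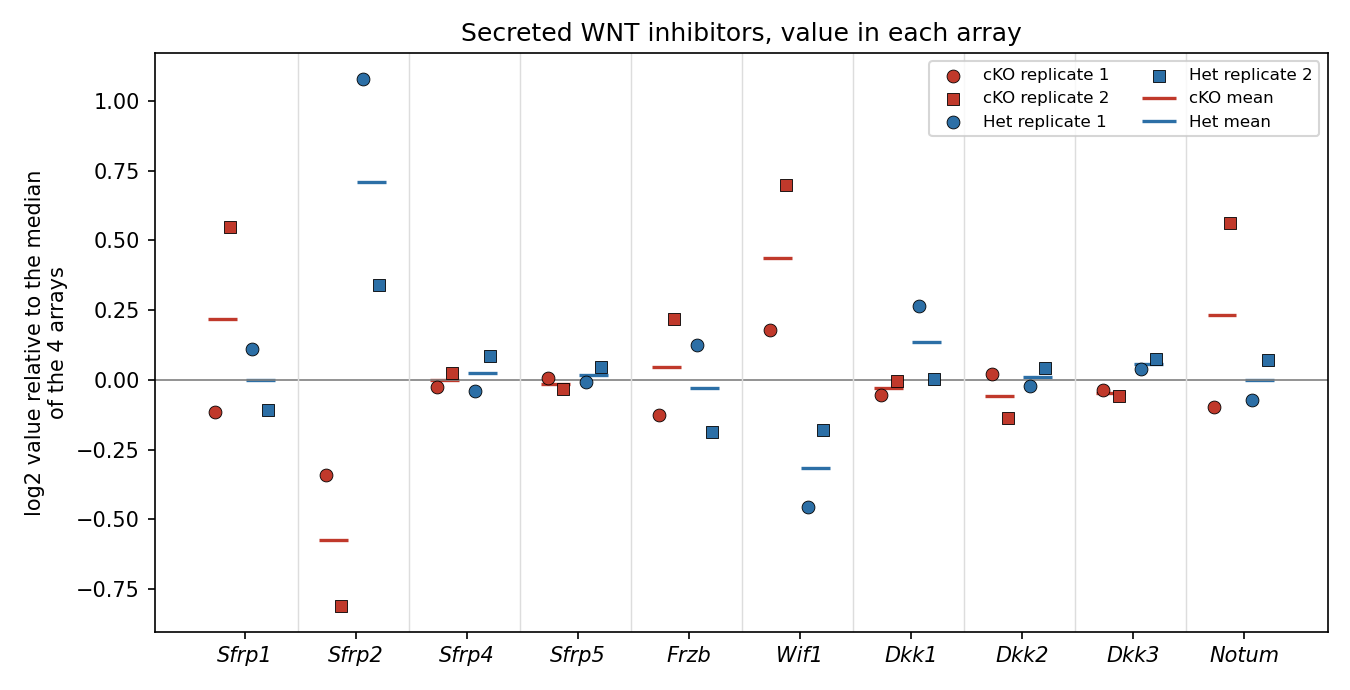
Values of the 10 secreted WNT inhibitors in each array. The vertical axis is the log2 value relative to the median of the 4 arrays; red marks are cKO and blue marks Het, circles replicate 1 and squares replicate 2, and short lines are group means (n = 2). Sfrp2 lies at -0.34 and -0.81 in cKO and at 1.08 and 0.34 in Het, while Wif1 lies at 0.18 and 0.70 in cKO and at -0.45 and -0.18 in Het.

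The SFRP proteins carry a cysteine-rich domain related to that of the Frizzled receptors, with which they bind WNT ligands. Sfrp2 is expressed in dermal papillae and also in dermal fibroblasts. It stood at -0.34 and -0.81 in cKO replicates 1 and 2, against 1.08 and 0.34 in Het replicates 1 and 2. Both cKO arrays lay below both Het arrays, and the arrays within a group were 0.47 apart in cKO and 0.74 apart in Het. The means were -0.57 ± 0.33 in cKO and 0.71 ± 0.52 in Het (SD, n = 2 each). The difference of -1.28 ± 0.33 (SE, limma) is 2.43-fold lower in cKO, with a 95% interval from -2.25 to -0.31. It was larger in size than that of 99.9% of all genes and did not pass the test (adjusted p = 0.936, limma). The 4 differences between 1 cKO and 1 Het array ran from -1.89 for cKO replicate 2 with Het replicate 1 to -0.68 for cKO replicate 1 with Het replicate 2. Without Het replicate 1 the difference was -0.91, under 2-fold.

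WIF1, whose WIF domain binds WNT ligands, is unrelated to the SFRP proteins in sequence. Wif1 stood at 0.18 and 0.70 in cKO replicates 1 and 2, against -0.45 and -0.18 in Het replicates 1 and 2. Here both cKO arrays lay above both Het arrays, the opposite order to Sfrp2. The means were 0.44 ± 0.37 in cKO and -0.32 ± 0.20 in Het (SD, n = 2 each). The difference was 0.75 ± 0.22 (SE), 1.69-fold higher in cKO, with a 95% interval from 0.10 to 1.41 (adjusted p = 0.936, limma). It was larger in size than that of 99.7% of all genes. Leaving out cKO replicate 2 gave 0.49, less than the full value by over 1.5 times. Wif1 minus Sfrp2 within each array is a difference of centred values and not a ratio of levels. It was 0.52 and 1.51 in cKO replicates 1 and 2 and -1.53 and -0.52 in Het replicates 1 and 2. Its signs follow from the choice of 2 members that differed in opposite directions.

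RefSeq promoter sequences of the build GRCm38.p6 were matched by symbol for 6 of the 10 members, and the 250 bases before the listed start are shown for 4 of them. Sfrp2 and Wif1 are shown because they differed most, and Frzb and Dkk1 because they hold the letters searched for WNT response. The positions are chr3:83766071-83766320 (plus strand) for Sfrp2, chr10:121033754-121034003 (plus strand) for Wif1, chr2:80447397-80447646 (minus strand) for Frzb and chr19:30549497-30549746 (minus strand) for Dkk1. For Sfrp2 the gene table starts the gene upstream of this window, so the window precedes the start of 1 annotated transcript. Capitals mark the letters CNTTGT or CTTTGA on either strand. CNTTGT was searched as a loose form of the core bound by SOX proteins, with any base at N. CTTTGA is a core bound by the TCF and LEF partners of beta-catenin. Each line reads 5′ to 3′ on the gene's strand.
Sfrp2: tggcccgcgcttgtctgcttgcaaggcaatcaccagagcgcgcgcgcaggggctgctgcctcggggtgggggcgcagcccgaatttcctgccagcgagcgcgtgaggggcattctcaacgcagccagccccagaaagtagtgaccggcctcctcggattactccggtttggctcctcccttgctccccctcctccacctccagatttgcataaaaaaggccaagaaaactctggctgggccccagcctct
Wif1: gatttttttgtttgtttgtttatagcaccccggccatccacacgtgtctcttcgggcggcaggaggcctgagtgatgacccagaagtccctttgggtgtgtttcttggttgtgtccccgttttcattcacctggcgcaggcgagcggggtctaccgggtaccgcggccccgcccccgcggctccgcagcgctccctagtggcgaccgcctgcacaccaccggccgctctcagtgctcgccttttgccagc
Frzb: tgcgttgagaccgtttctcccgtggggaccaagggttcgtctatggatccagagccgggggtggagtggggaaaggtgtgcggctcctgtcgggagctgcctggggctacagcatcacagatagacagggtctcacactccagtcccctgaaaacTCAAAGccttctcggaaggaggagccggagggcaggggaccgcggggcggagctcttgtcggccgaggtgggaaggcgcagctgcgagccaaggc
Dkk1: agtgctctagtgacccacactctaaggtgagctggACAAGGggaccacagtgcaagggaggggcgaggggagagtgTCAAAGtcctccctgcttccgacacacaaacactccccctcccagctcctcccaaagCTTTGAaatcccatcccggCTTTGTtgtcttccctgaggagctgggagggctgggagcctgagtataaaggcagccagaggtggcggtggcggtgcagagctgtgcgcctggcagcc
The Sfrp2 and Wif1 windows held neither motif. Dkk1 held both, with CNTTGT at 2 places and CTTTGA at 2 places, and Frzb held CTTTGA once, from 95 to 90 bases before the start. Over the 6 members, CNTTGT was found in 3 (Sfrp5, Dkk1 and Dkk2) and CTTTGA in 2 (Frzb and Dkk1). Among 32817 promoters of the same length, 36.3% held CNTTGT and 13.8% held CTTTGA. The 2 motifs differ in their last letter, so 1 site on 1 strand cannot match both. A match of 6 letters is a description of the window and says nothing of binding. The GC content was 63.6% for Sfrp2 and 62.8% for Wif1, against a median of 52.4% over all promoters.

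Among the other SFRP genes, Sfrp1 and Frzb varied between the arrays of a group, and Sfrp4 and Sfrp5 hardly varied at all. Sfrp1, close in sequence to Sfrp2, stood at -0.11 and 0.55 in cKO, against 0.11 and -0.11 in Het. One cKO array was thus the highest and the other the lowest of all 4. The difference of 0.22 ± 0.27 (SE) had a 95% interval from -0.56 to 1.00 and turned to -0.11 without cKO replicate 2. Frzb, the gene of the protein also called sFRP3, stood at -0.13 and 0.22 in cKO, against 0.13 and -0.19 in Het. The groups overlapped, and the difference of 0.08 ± 0.18 turned to -0.10 without cKO replicate 2 and to -0.08 without Het replicate 2. Sfrp4 stood at -0.03 and 0.03 in cKO and at -0.04 and 0.08 in Het, and Sfrp5 at 0.01 and -0.03 in cKO and at -0.01 and 0.04 in Het. These 2 genes had ranges over the 4 arrays of 0.12 and 0.08, less than the median range of all genes, 0.14. Their differences were -0.02, with a 95% interval from -0.20 to 0.16, and -0.03, with an interval from -0.16 to 0.09. The sign of the Sfrp4 difference turned without cKO replicate 1 (0.003) and without Het replicate 2 (0.04).

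The DKK genes differed little between the groups. DKK1 blocks the LRP coreceptors, and forced expression of Dkk1 in mouse skin prevents hair follicles from forming. Dkk1 stood at -0.05 and -0.004 in cKO replicates 1 and 2, against 0.27 and 0.004 in Het replicates 1 and 2. The groups did not overlap, but cKO replicate 2 minus Het replicate 2 was -0.0075, and Het replicate 1 alone stood away from the rest. The difference was -0.16 ± 0.11 (SE), with a 95% interval from -0.47 to 0.15, and was -0.03 without Het replicate 1. Without Het replicate 2 it was -0.29.

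Dkk3, a divergent family member whose effect on WNT signalling varies with context, stood at -0.04 and -0.06 in cKO, against 0.04 and 0.07 in Het. The 2 arrays of each group lay close together and the groups did not overlap. The difference was small, -0.10 ± 0.04 (SE), or 1.07-fold lower in cKO, with a 95% interval from -0.22 to 0.01 (adjusted p = 0.937, limma), and lay between -0.12 and -0.09 with any 1 array left out. Dkk2, which can block or raise WNT signalling depending on the receptors present, stood at 0.02 and -0.14 in cKO, against -0.02 and 0.04 in Het. Its groups overlapped, and the difference of -0.07 ± 0.07 turned to 0.01 without cKO replicate 2.

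Notum, whose product inactivates WNT ligands and is itself induced by beta-catenin in several tissues, was set apart by 1 array. It stood at -0.10 and 0.56 in cKO replicates 1 and 2, against -0.07 and 0.07 in Het replicates 1 and 2. cKO replicate 2 was the highest array and cKO replicate 1 the lowest. The difference of 0.23 ± 0.26 (SE) had a 95% interval from -0.52 to 0.99, and it was -0.10 without cKO replicate 2 and 0.56 without cKO replicate 1.

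**Figure D2:**
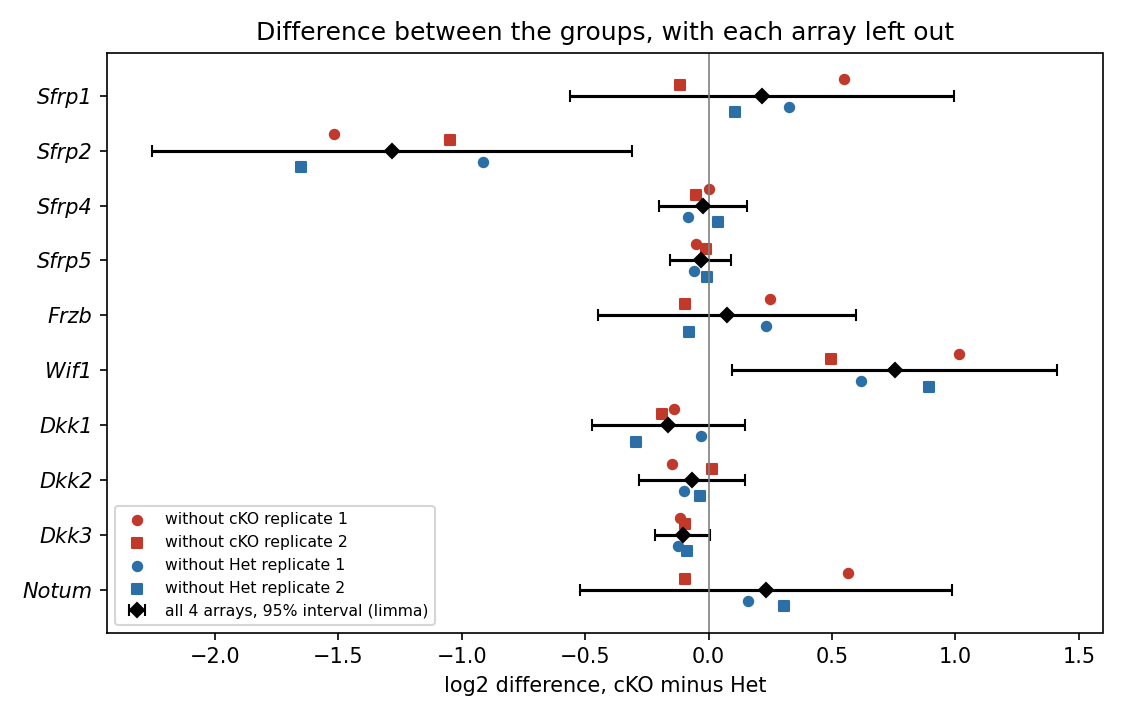
Log2 difference, cKO minus Het, of each inhibitor. Black diamonds with bars are the difference over all 4 arrays with its 95% interval from limma, and coloured marks are the difference with 1 array left out. Sfrp2 stays between -1.65 and -0.91 and Wif1 between 0.49 and 1.01, while Sfrp1, Sfrp4, Frzb, Dkk2 and Notum have marks on both sides of 0.

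The size order of the differences was Sfrp2, Wif1, Notum, Sfrp1, Dkk1, Dkk3, Frzb, Dkk2, Sfrp5 and Sfrp4. From Notum downwards each 95% interval held 0, so these neighbours are not separated by their spread. The intervals of Sfrp2 and Wif1 lay on opposite sides of 0, without adjustment over genes. cKO replicate 2 was the highest array for Sfrp1, Frzb, Wif1 and Notum and the lowest for Sfrp2, Sfrp5, Dkk2 and Dkk3, which makes it the highest or lowest array in 8 of the 10 members, against 56.9% of all genes. This count was made after the values were seen. It had the widest spread of the 4 arrays over all probe sets, with an SD of 0.158, against 0.107 to 0.138 in the others.

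The genes closest to Sfrp2 over the 4 arrays, by Euclidean distance, were Mc3r at 0.14, Micos13 at 0.23 and F5 at 0.29. Mc3r encodes a melanocortin receptor, Micos13 a subunit of a mitochondrial inner membrane complex and F5 coagulation factor V. Their differences were -1.21 for Mc3r, -1.05 for Micos13 and -1.50 for F5. The genes closest to Wif1 were 4833420G17Rik at 0.17, the splicing factor gene Cwc22 at 0.20 and Klhl24 at 0.25, with differences of 0.86, 0.95 and 0.53. These neighbours were picked by the same 4 values, so differences like those of Sfrp2 and Wif1 follow from the choice. Among the inhibitors, Notum was closest to Wif1, at 0.55 and rank 124 over all genes, followed by Sfrp1 at 0.66 and rank 364. Yet in cKO replicate 1 Notum stood at -0.10 and Sfrp1 at -0.11, against 0.18 for Wif1. Dkk1 was the inhibitor closest to Sfrp2, but at 1.23 and rank 1732 it was not a near neighbour.

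The rest of the WNT pathway, together with 4 extracellular proteases, was read in 9 further lists with 87 measured genes. Tcf7 was listed and not measured. Of these genes 48 stood higher and 39 lower in cKO. Of all 87, 14 stood higher with groups that did not overlap, against 17.8% of all genes. Another 19 of the 87 stood lower with such groups, against 15.6% of all genes. Of the 87 genes, 0 passed limma's test over all genes (lowest adjusted p = 0.897). At an unadjusted p under 0.05 there were 7, against 5.28% of all genes. Over the 87 genes the median difference was 0.01. Among 14 further inhibitors, 8 stood higher and 6 lower. Sostdc1, a secreted inhibitor of WNT and BMP signals, stood at -0.66 and -1.10 in cKO and at 1.88 and 0.66 in Het, a difference of -2.15 ± 0.49 (SE), the same array order as Sfrp2. Draxin, a secreted axon guidance protein gene that also inhibits WNT signals, differed by -0.61 ± 0.18. Nkd2, an intracellular feedback inhibitor gene, stood at -0.03 and -0.11 in cKO and at 0.83 and 0.03 in Het, a difference of -0.50 ± 0.31 in which Het replicate 1 stood away from the other arrays.

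The targets of the inhibitors differed less than Sfrp2 and Wif1. DKK1 and DKK2 bind LRP5 and LRP6, the WNT coreceptors, and KREMEN1 takes part in removing LRP6 from the cell surface. Among 5 such receptors, Lrp6 differed by 0.03 ± 0.08, Lrp5 by -0.06 ± 0.05, Lrp4 by -0.23 ± 0.12 and Kremen1 by 0.11 ± 0.14. Among 19 WNT ligands, 11 stood higher and 8 lower, and their differences ran from -0.06 to 0.14. The ligands with the largest differences were Wnt10a at 0.14 ± 0.06, Wnt5a at 0.12 ± 0.28 and Wnt2 at 0.12 ± 0.05. Wnt5a overlapped between the groups, at 0.31 and -0.20 in cKO and at 0.20 and -0.33 in Het. PORCN attaches the lipid to WNT ligands and WLS carries them to the cell surface. Their genes Porcn and Wls differed by 0.12 ± 0.08 and -0.07 ± 0.09. The 6 glypicans, cell surface proteoglycans that can present WNT ligands, differed by -0.06 to 0.02, with Gpc6, Gpc3 and Gpc4 at -0.06, -0.05 and -0.02.

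Of 14 Frizzled and alternative WNT receptors, 10 stood higher and 4 lower. Fzd7 differed by -0.28 ± 0.09, the coreceptor gene Ptk7 by -0.16 ± 0.04 and the WNT5A receptor gene Ror2 by 0.11 ± 0.05. Of 9 genes for R-spondins and their receptors, which amplify WNT signals, 3 stood higher and 6 lower. Rspo3 stood at -0.23 and -0.29 in cKO, against 0.56 and 0.23 in Het, a difference of -0.66 ± 0.13, and Rspo1 differed by -0.40 ± 0.20. The receptor gene Lgr4 stood at 0.39 and 0.15 in cKO, against -0.15 and -0.20 in Het, a difference of 0.44 ± 0.10.

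Of 14 measured genes of the beta-catenin core and its targets, 10 stood higher and 4 lower, with a median of 0.04. Lef1 stood at 0.10 and 0.70 in cKO, against -0.10 and -0.12 in Het, a difference of 0.51 ± 0.23. Its highest array was cKO replicate 2, as for Wif1, Notum, Frzb and Sfrp1. Axin2, a feedback target used as a readout of the pathway, stood at -0.05 and 0.26 in cKO, against 0.05 and -0.08 in Het. Its groups overlapped and the difference was 0.13 ± 0.13. Tnfrsf19 differed by 0.25 ± 0.20 and the repressor gene Tcf7l1 by -0.25 ± 0.09. Among 4 extracellular proteases, Htra1 differed by -0.49 ± 0.22, Mmp14 by -0.36 ± 0.42 and Bmp1 by 0.07 ± 0.12.

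**Figure D3:**
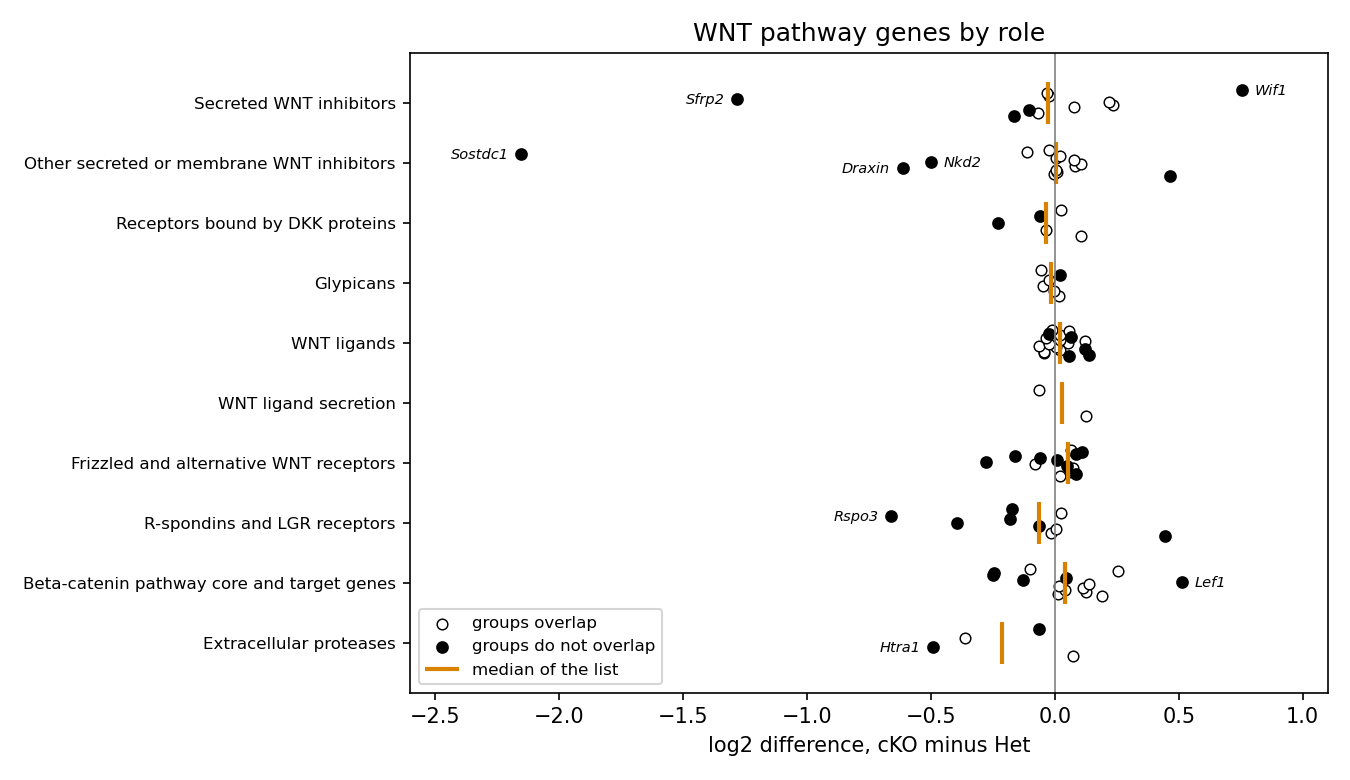
Log2 difference, cKO minus Het, of each measured WNT pathway gene and of the extracellular proteases, in rows by role. Filled points are genes whose groups did not overlap, open points genes whose groups overlapped, and orange lines list medians; genes at least 0.49 from 0 are named. Sostdc1 at -2.15 and Sfrp2 at -1.28 lie farthest from 0, with Wif1 at 0.75 on the other side.

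Markers of the papilla and of other cells that a skin sort can hold were read in 12 lists, none of which was tested as a list. In 4 of them the array medians did not overlap between the groups, and 0 of their genes passed limma's test over all genes. Single genes separated in this way in 17.8% (higher in cKO) and 15.6% (lower) of all genes. A list with separate medians is therefore not shown to differ. Of 11 measured dermal fibroblast markers, 10 stood lower and 1 higher in cKO. Of all 11, 6 stood lower with groups that did not overlap, against 15.6% of all genes. The 1 that stood higher, Dpp4 at 0.20, had such groups too, against 17.8% of all genes. The median of the list was -0.05 and -0.09 in cKO replicates 1 and 2, against 0.09 in both Het arrays. Lum, the lumican gene, differed by -0.54 ± 0.12 and Fbln1, the fibulin 1 gene, by -0.38 ± 0.14. Sfrp2 stood lower in the same arrays. Of 18 dermal papilla markers, 8 also stood lower and 10 higher. Of all 18, 3 stood lower with groups that did not overlap, Sox2 among them, against 15.6% of all genes. Another 3 of the 18 stood higher with such groups, against 17.8% of all genes. The part of fibroblast or papilla RNA in the Sfrp2 difference was not tested. Of 10 measured Schwann and glial markers, 4 stood higher and 6 lower, with a median difference of -0.08. The list had medians of -0.01 and -0.05 in cKO, against 0.02 and 0.01 in Het, with Egr2 at -1.35 ± 0.23 and Fabp7 at -0.82 ± 0.08. Of 12 dermal sheath and smooth muscle markers, 3 stood higher and 9 lower. The list had medians of -0.02 and -0.003 in cKO, against 0.01 and 0.02 in Het, with Itga8 at 0.38 ± 0.17 and Tpm2 at -0.26 ± 0.15. Of 10 endothelial markers, 5 stood higher and 5 lower. The list had medians of 0.01 and 0.01 in cKO, against -0.02 and 0.004 in Het, with Cdh5 at -0.13 ± 0.17 and Pecam1 at 0.07 ± 0.04.

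In the other 8 marker lists the medians of the groups overlapped. Of 14 keratinocyte markers, 12 stood lower and 2 higher in cKO, with a median difference of -0.12. The list had medians of -0.04 and 0.01 in cKO replicates 1 and 2, which lay between those of Het, -0.10 in replicate 1 and 0.28 in replicate 2. Het replicate 2 also had the highest medians of the hair shaft list, 0.13, and the melanocyte list, 0.15. Of 12 measured hair shaft markers 9 stood lower and 3 higher in cKO, and of 12 melanocyte markers 8 stood lower and 4 higher. Among the inhibitors, Sfrp4, Sfrp5, Dkk2 and Dkk3 had their highest value in Het replicate 2, and Frzb had its lowest there. That array was thus the highest or lowest in 5 of the 10 members, against 42.7% of all genes. The ranges of Sfrp4, Sfrp5, Dkk2 and Dkk3 ran from 0.08 to 0.18, around the median range of all genes, 0.14. Sfrp2 was highest in Het replicate 1 and Wif1 in cKO replicate 2. The part of keratinocyte, hair shaft or melanocyte RNA in the members' values was not tested. The dermal papilla list, which holds Sox2, had 10 of 18 genes higher in cKO, with medians of -0.01 and 0.05 in cKO, against 0.04 and -0.06 in Het. Medians of the Merkel cell, immune, adipocyte and skeletal muscle lists lay between -0.02 and 0.02 in every array.

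**Figure D4:**
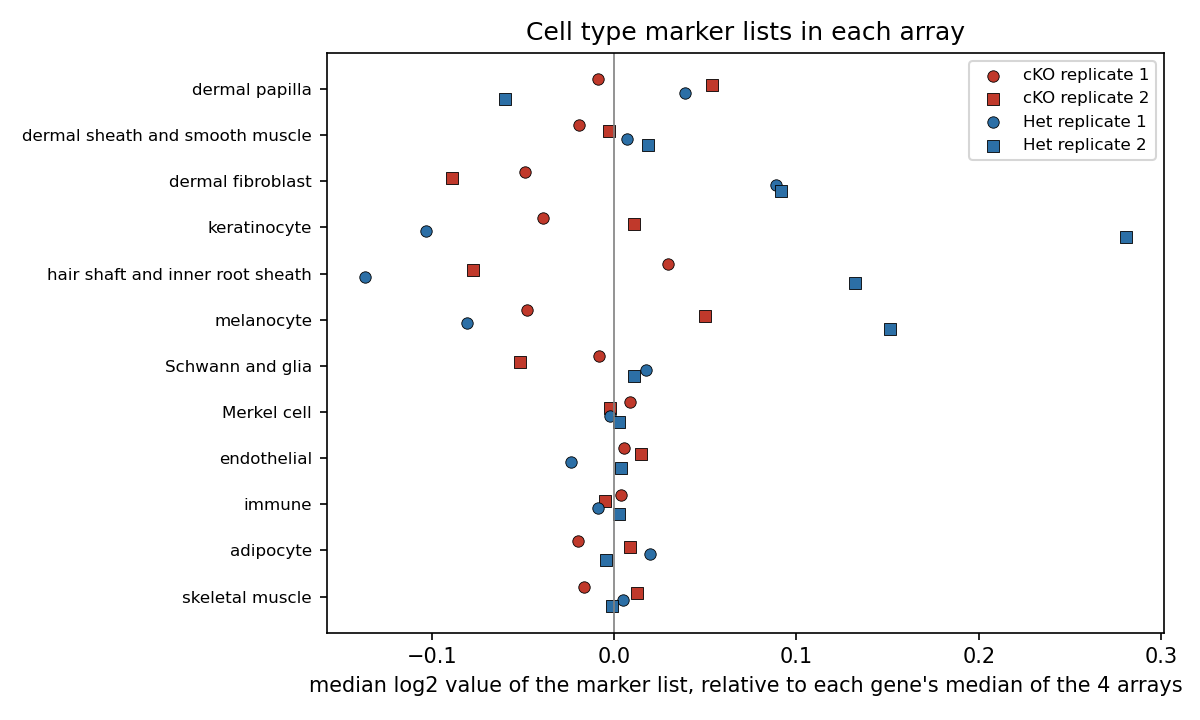
Median log2 value of each cell type marker list in each array, relative to the median of the 4 arrays for each gene. Red marks are cKO and blue marks Het, circles replicate 1 and squares replicate 2. The fibroblast list lies at -0.05 and -0.09 in cKO and at 0.09 in both Het arrays, and the keratinocyte list spans -0.10 to 0.28 within Het.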

How the data were processed

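RNA from sorted dermal papilla cells was isolated with a microprep kit, amplified and labelled with biotin, per the labels' protocols. Per the submitters' processing notes the authors used RMA, which gives log2 values, so the base was taken as 2. Its version, the build and the centring are not stated in those notes. In the deposited table every probe set had a median of 0 over the 4 arrays, within 5e-07, so no filter on dim probe sets could be set.

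Of 28853 probe sets, 21789 named 1 gene in the platform annotation, 1621 named several and 5443 had no listed gene. Values were averaged per gene, which gave 19938 genes. Groups were compared with limma 3.58.1 in R 4.3.3 (lmFit and eBayes, group as the only term, two-sided), with Benjamini-Hochberg adjustment over all genes and calls at 0.05. There were 2 residual and 1.52 prior degrees of freedom. SE and 95% intervals are from this fit, and fold changes are 2 to the size of the log2 difference. The number of arrays limits the precision. The fit was run on simulated normal values with planted differences, and the check was that their mean estimate was recovered. That check does not measure how well the calls work in these arrays. Plots were made in Python 3.11.15 (matplotlib 3.10.9).

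The members and the gene lists were chosen with earlier results of these data known. The genes named are the members, Sox2, Itga9, the 3 largest differences of each other WNT list, with Sostdc1, Lef1, Axin2, Lrp6 and Kremen1 in any case, the 3 genes nearest to each of the 2 members that differed most, and the 2 largest differences of each marker list whose group medians did not overlap. Outside this rule, Dpp4, Xist and Eif2s3y were added after their values were seen. Alternatives changed the array scaling, the prior, the moderation, the pairing, the handling of probe sets and the arrays included.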

Additional observations from a re-analysis of the deposited data

How the results depend on the processing

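The 8 settings that keep all 4 arrays included array medians centred and quantile normalization, which rescale the values. A robust prior, an unmoderated statistic and the replicate block change only the spread and the p-values. The median over probe sets, probe sets tested singly and probe sets naming several genes added left each member's difference as it was, with 1 probe set each. Only the rescaling could therefore turn a member's direction. Under the 8 settings all 80 member differences kept their direction. In each, 4 members had groups that did not overlap and 0 genes passed. Only the rescaling could change this count of 4, because the other settings left the members' values as they were. In the main comparison 1 of these members stood higher in cKO, against 17.8% of all genes. The other 3 stood lower, against 15.6% of all genes. With the replicate number as a block (replicate block), the differences were unchanged in size (Sfrp2 at -1.28 and Wif1 at 0.75) and the adjusted p of both was 0.514 (limma), the lowest of any member under any alternative; the count of genes at an unadjusted p under 0.05 was 1625 in place of 1053. Deviations of same-numbered arrays correlated at 0.304 over genes, but with 2 pairs and no label on a shared day or litter the arrays were taken to share only a number.

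With 1 array left out, the lone array of a group was assumed to vary like the other group, and 0 genes passed in each case. Members whose groups did not overlap then numbered 5 to 9, against 62% to 71.1% of all genes. Sfrp2 fell under 2-fold without Het replicate 1 (-0.91), and Wif1 reached 2-fold without cKO replicate 1 (1.01). The median of the members ran from -0.0945 without cKO replicate 2 to -0.0213 without Het replicate 2. Of 40 such member differences, 7 turned their sign: the ranges were -0.11 to 0.55 for Sfrp1, -0.0849 to 0.0384 for Sfrp4, -0.10 to 0.25 for Frzb, -0.148 to 0.0122 for Dkk2 and -0.10 to 0.56 for Notum. The cause was not tested. Sfrp2, Sfrp5, Wif1, Dkk1 and Dkk3 kept their direction. With 2 arrays a group and no signal over background in the values, a difference that did not pass is not shown to be absent.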
